A study of Homo sapiens with 9 samples.

Results

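The genes described here encode the protein core of the spliceosome and the machine that assembles it. They are 46 genes, found in the count table by matching its Ensembl identifiers to a fixed set of symbols, out of 51796 genes in the table and 14582 with enough reads to be tested. All 46 were tested, and the lowest count of any of them in any library was 326 reads. By role they comprised 4 proteins of the Sm ring (SNRPD2, SNRPE, SNRPF and SNRPG), 5 of the SMN complex, 6 LSm proteins, 3 of the U1 particle, 11 of the U2 particle and its partner U2AF, 8 of the tri-snRNP, 2 of the Prp19 complex and 7 SR proteins.

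The spliceosome removes introns from pre-mRNA and is built from small nuclear ribonucleoproteins (snRNPs), each an RNA with a ring of Sm proteins and a set of its own proteins. U1 and U2AF recognise the ends of the intron, U2 binds the branch site, and the tri-snRNP of U4, U6 and U5 joins before the Prp19 complex helps to form the catalytic core. The SMN complex loads the Sm ring onto the RNA, after the methylosome of PRMT5 and MEP50 has placed symmetric dimethyl marks on arginines of several Sm proteins. SR proteins bind exons and recruit the early particles.

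RNA was measured in A549, an established line of human lung adenocarcinoma cells, after stable expression of short hairpin RNAs under puromycin selection. There were 3 groups of 3 libraries, labelled as biological replicates. The groups carried a hairpin against GFP (the control), against PRMT5, an arginine methyltransferase, or against MEP50, its WD-repeat partner encoded by WDR77. The labels name no clone and no hairpin sequence, all groups went through the same selection, and no group without a hairpin was among these libraries. Both knockdowns were compared with the same 3 control libraries, so their changes against the control are not independent of each other.

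Reads counted on genes ranged from 20806181 to 31586128 per library. PRMT5 stood at 205 to 212 CPM (counts scaled to the size of the library, with TMM factors) in the control libraries, 67.5 to 70.1 CPM in the PRMT5 knockdown and 200 to 211 CPM in the MEP50 knockdown. WDR77 stood at 39.2 to 39.6 CPM in the control, 42.1 to 46.9 CPM in the PRMT5 knockdown and 10.7 to 13.6 CPM in the MEP50 knockdown, so each targeted transcript was low in the libraries labelled for it. Of 5 epithelial markers, 2 (KRT19 and EPCAM) were below 0.5 CPM in all groups, and the summed level of the list was 6342 to 6573 CPM in the control, 4150 to 4311 CPM in the PRMT5 knockdown and 3866 to 4142 CPM in the MEP50 knockdown. Most of that sum was KRT8 and KRT18, which fell in both knockdowns, while CDH1 fell after PRMT5 knockdown (log2 fold change -0.20) and rose after MEP50 knockdown (0.92). Of 5 lung lineage markers 4 were below 0.5 CPM, and the list summed to at most 1.26 CPM in any library. Of 6 fibroblast markers 3 were below 0.5 CPM, and the list summed to 108 to 110 CPM, 221 to 233 CPM and 272 to 290 CPM in the same order of groups. Most of it was COL3A1, which rose in both knockdowns, as did COL1A1. LUM fell after PRMT5 knockdown (log2 fold change -3.06) and rose after MEP50 knockdown (0.61). All 7 blood and endothelial markers were below 0.5 CPM. Reads that fell on no counted gene feature were 11.9 to 12.4% of the total in the control and 13.7 to 14.5% with PRMT5 knockdown. With MEP50 knockdown they were 12.3 to 13.8%. The counts do not show whether these reads lay in introns or between genes, and their part in the results below was not tested.

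Most of the genes were modestly higher after either knockdown. With the PRMT5 hairpin 31 of 46 (67.4%) rose and 3 fell, where 26.1% of all tested genes rose and 24.9% fell (51% in either direction). With the MEP50 hairpin 27 (58.7%) rose and 3 fell, against 26.5% and 25.2% of all tested genes (51.7% in either direction). These calls are those of edgeR's quasi-likelihood test at a Benjamini-Hochberg adjusted p below 0.05 over all tested genes. Of the 9417 tested genes that averaged 10 CPM or more, 32.2% rose and 29% fell after PRMT5 knockdown and 33% rose and 29.2% fell after MEP50 knockdown. In bulk RNA, a change in the make-up of the cells and a change in RNA per cell cannot be told apart.

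The sizes were small. The median log2 fold change of the 46 genes was 0.13 with the PRMT5 hairpin and 0.11 with the MEP50 hairpin, where all tested genes had medians of 0.0032 and -0.0019. Rises of at least 1.2-fold that passed the test numbered 9 after PRMT5 knockdown (LSM2, LSM7, SF3A2, SF3B1, PRPF3, PRPF4, PRPF8, SNRNP200 and SRSF6), beside 15.9% of all tested genes. After MEP50 knockdown they numbered 3 (SNRPE, LSM2 and LSM7), beside 16.9%. Only SNRPC fell so far after PRMT5 knockdown, and the 3 falls after MEP50 knockdown were smaller, where 16% and 17.4% of all tested genes fell by that much. The PRMT5 knockdown libraries all lay above the control libraries for 30 of the genes and all below for 2, where 29.3% and 27.9% of all tested genes did so. For the MEP50 knockdown these counts were 27 and 4, beside 28.7% and 28.2%.

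**Figure D1:**
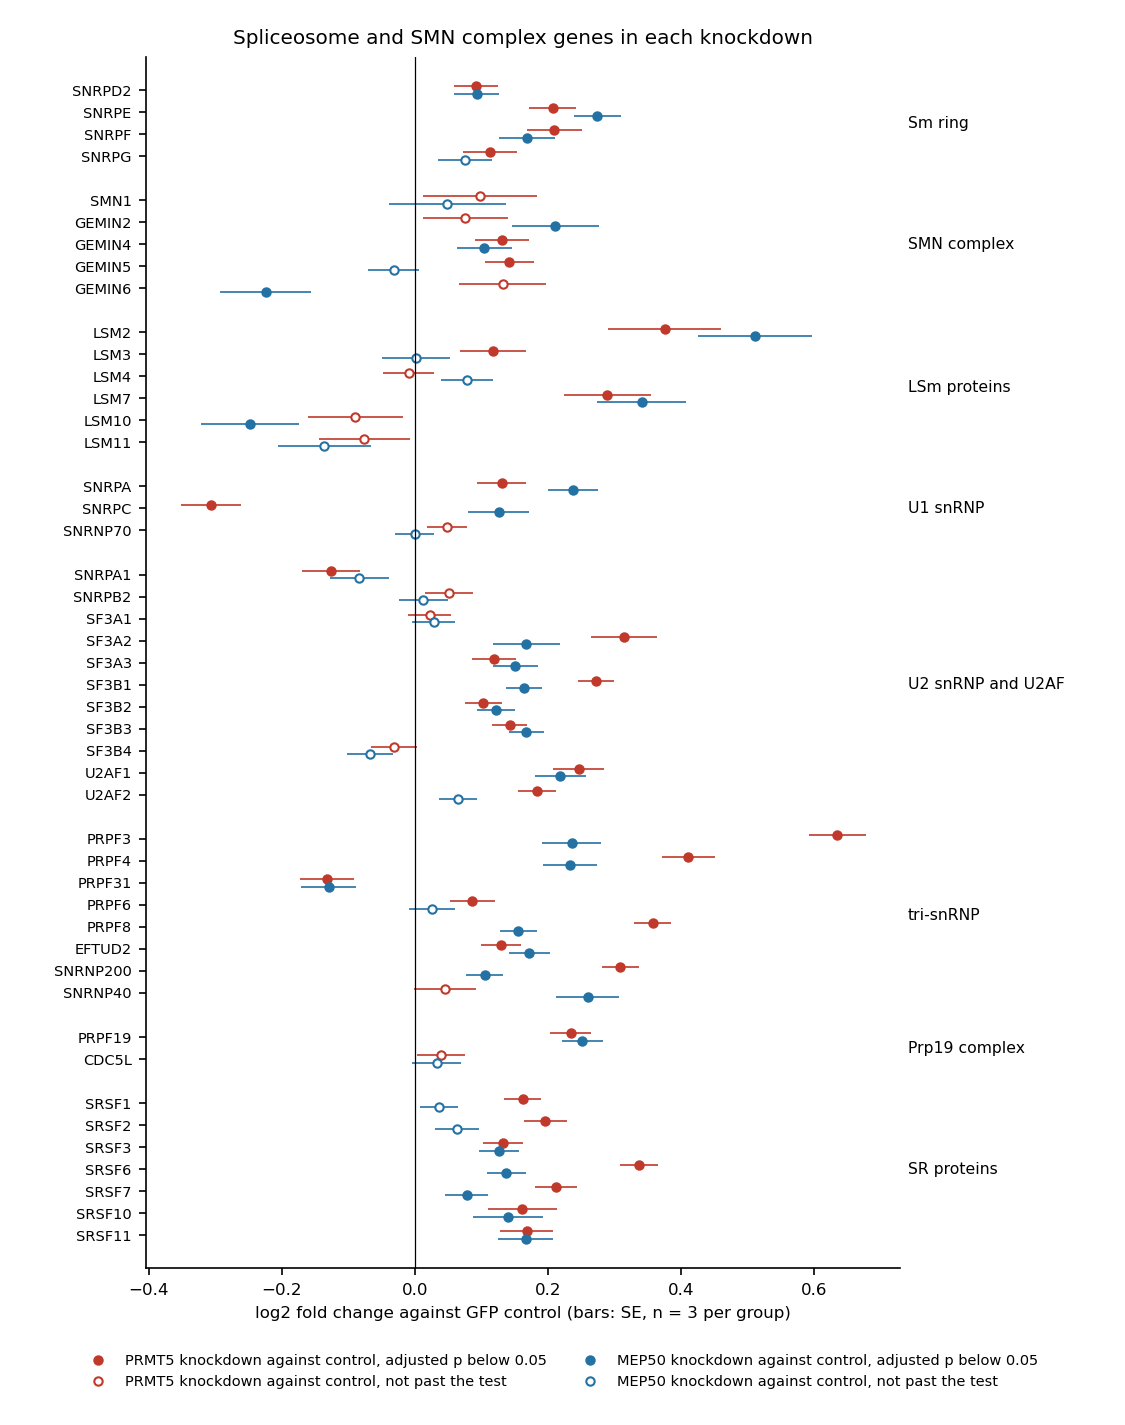
Log2 fold change against the GFP control (horizontal axis) of each of the 46 genes after PRMT5 and after MEP50 knockdown, grouped by role; bars are standard errors and filled points passed the test (adjusted p below 0.05, edgeR). Most points lie right of 0 and within 0.4, with PRPF3 at 0.64 and LSM2 at 0.51 farthest to the right.

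By name, 24 genes rose in both knockdowns and 7 passed the test as higher only in the comparison of PRMT5 knockdown with control (SNRPG, GEMIN5, LSM3, U2AF2, PRPF6, SRSF1 and SRSF2). GEMIN2 and SNRNP40 passed as higher only after MEP50 knockdown. PRPF31 fell in both, SNRPA1 passed as lower after PRMT5 knockdown, and GEMIN6 and LSM10 passed as lower after MEP50 knockdown. SNRPC alone among the 46 fell in one knockdown and rose in the other. The 8 genes that passed in neither comparison with the control were SMN1, LSM4, LSM11, SNRNP70, SNRPB2, SF3A1, SF3B4 and CDC5L. Passing in one comparison and not in another does not show a difference between the knockdowns, which was tested separately below.

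The levels were also summed by role. The 46 genes together held 7884 ± 33.8 CPM in the control, 8886 ± 62.2 CPM in the PRMT5 knockdown and 8498 ± 130 CPM in the MEP50 knockdown (SD, n = 3), and the groups did not overlap. As a percentage of the control mean, the tri-snRNP sum was 120 ± 2.84% after PRMT5 knockdown and 109 ± 2.54% after MEP50 knockdown. The SR protein sum was 114 ± 1.12% and 106 ± 3.95%, and the U2 and U2AF sum was 110 ± 1.87% and 108 ± 0.98%. The Sm ring stood at 111 ± 2.93% and 112 ± 3.8%, and the Prp19 pair at 111 ± 2.41% and 112 ± 1.8%. The SMN complex stood at 109 ± 0.788% and 102 ± 5.30%, the LSm proteins at 104 ± 2.21% and 104 ± 2.59%, and the U1 proteins at 101 ± 2.21% and 106 ± 2.46%. MEP50 knockdown library 1 was the highest of its group for the SMN complex (108%, beside 98.2% and 99.8%) and the SR proteins (111%, beside 103% and 105%). Sums are led by the abundant members and were not tested.

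**Figure D2:**
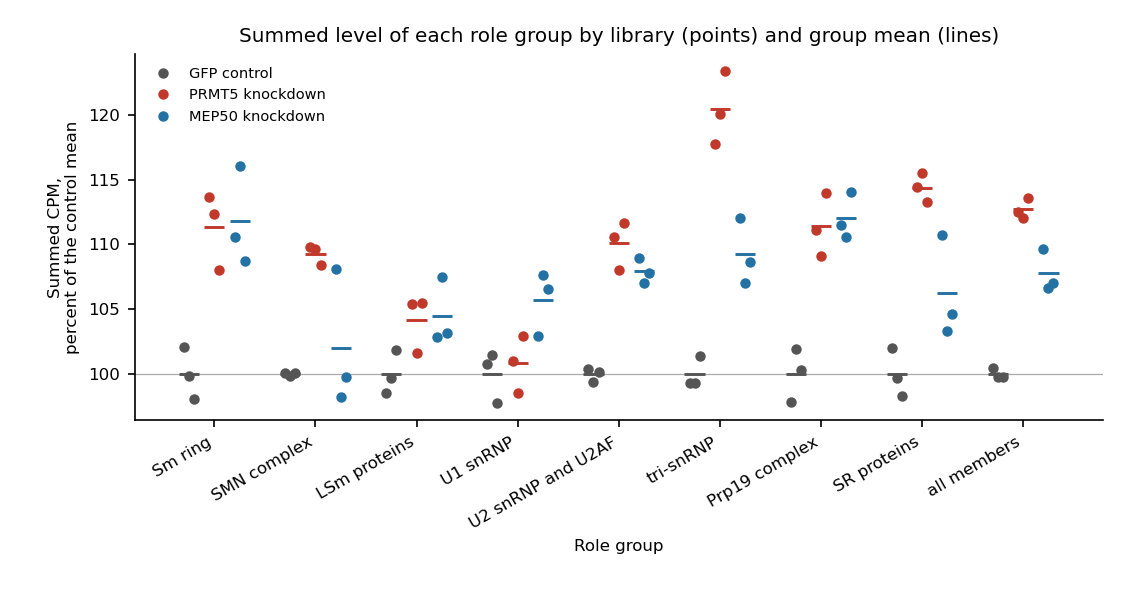
Summed level of each role group in each library, as a percentage of the control mean (vertical axis), with points for the 3 libraries of each group. The tri-snRNP sum of the PRMT5 knockdown is the highest, at 118 to 123%, and the U1 sum of the PRMT5 knockdown overlaps the control.

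In the Sm ring, all 4 members rose after PRMT5 knockdown and 3 after MEP50 knockdown, where 26.1% and 26.5% of all tested genes rose. None differed between the knockdowns in edgeR (0 at an unadjusted p below 0.05, 0 in DESeq2), beside 39.7% of all tested genes. SNRPE (ENSG00000182004), a core protein of the ring, had 166, 162 and 158 CPM in the control libraries, 188, 195 and 177 CPM after PRMT5 knockdown and 193, 204 and 190 CPM after MEP50 knockdown. Every knockdown library was above every control library. The log2 fold changes were 0.21 (SE 0.0351, adjusted p = 4.0e-06) and 0.27 (SE 0.0354, adjusted p = 1.6e-08). SNRPF (ENSG00000139343), another member of the ring, had 114, 107 and 103 CPM in the control, 133, 119 and 123 CPM after PRMT5 knockdown and 116, 122 and 126 CPM after MEP50 knockdown. The libraries of each knockdown lay above those of the control, although the lowest MEP50 knockdown library was close to the highest control, and the log2 fold changes were 0.21 (adjusted p = 5.1e-05) and 0.17 (adjusted p = 8.8e-04). SNRPD2, with log2 fold changes of 0.09 in both, lost its call in 5 of 17 alternative analyses of each comparison, and SNRPG (0.11 after PRMT5 knockdown) in 3.

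The other proteins of the ring are those with the arginine-rich tails that PRMT5 methylates. Of these SNRPB fell after PRMT5 knockdown (log2 fold change -0.22, adjusted p = 1.3e-07) and had -0.05 after MEP50 knockdown (adjusted p = 0.16), SNRPD1 rose in both (0.19 and 0.18), and SNRPD3 passed in neither (0.04 and 0.08). Reads on the annotated pseudogenes of SNRPE and SNRPG came to 4.38% and 10.0% of the reads on the gene itself, so their counts may be shared with near-identical copies. For SNRPF that share was 0.782% and for SNRPD2 0.00991%.

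In the SMN complex the members did not move together. GEMIN4 rose in both knockdowns (log2 fold changes 0.13 and 0.10), but after MEP50 knockdown it lost its call in 7 of 17 alternatives and had 0.05 (adjusted p = 0.28) without MEP50 knockdown library 1. GEMIN2 (ENSG00000092208), which clasps the Sm proteins before they are loaded, had 30.8, 32.1 and 30.6 CPM in the control, 31.0, 35.6 and 31.8 CPM after PRMT5 knockdown and 38.2, 34.0 and 36.2 CPM after MEP50 knockdown. The control and PRMT5 knockdown libraries overlapped, and the MEP50 knockdown libraries were above all controls, with a log2 fold change of 0.21 (SE 0.0647, adjusted p = 0.0058). GEMIN5 (ENSG00000082516), the subunit that recognises the snRNA, had 127, 130 and 127 CPM in the control, 147, 138 and 139 CPM after PRMT5 knockdown and 131, 119 and 126 CPM after MEP50 knockdown. It rose after PRMT5 knockdown (0.14, adjusted p = 0.0014) and stood 0.17 higher there than in the MEP50 knockdown (adjusted p = 2.2e-04).

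GEMIN6 (ENSG00000152147), which forms an Sm-like pair with GEMIN7, had 27.9, 28.7 and 29.99 CPM in the control, 30.5, 32.9 and 31.5 CPM after PRMT5 knockdown and 26.5, 24.97 and 22.97 CPM after MEP50 knockdown. The 3 groups did not overlap. It fell by 0.22 on the log2 scale after MEP50 knockdown (SE 0.0688, adjusted p = 0.0059), and without MEP50 knockdown library 3 the value was -0.18 (adjusted p = 0.057). After PRMT5 knockdown it had 0.13 (adjusted p = 0.091), and the difference between the knockdowns was 0.36 (95% interval 0.22 to 0.49). SMN1, the namesake of the complex, had log2 fold changes of 0.10 and 0.05 that did not pass, and its near-identical copy SMN2 had 0.17 and -0.01 (adjusted p = 0.14 and 0.96). Reads cannot be assigned between these copies with certainty.

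Among the LSm proteins, which form rings like the Sm ring on U6 and on decaying mRNA, LSM2 and LSM7 rose in both knockdowns. LSM2 (ENSG00000204392) had 13.01, 12.5 and 12.7 CPM in the control, 16.96, 16.8 and 15.8 CPM after PRMT5 knockdown and 17.2, 18.3 and 18.9 CPM after MEP50 knockdown. The knockdown libraries lay far above the control, by log2 fold changes of 0.38 (SE 0.0845, adjusted p = 2.7e-04) and 0.51 (SE 0.0856, adjusted p = 2.9e-06), the latter 1.43-fold. LSM7 had 0.29 and 0.34. LSM3 passed narrowly after PRMT5 knockdown (0.12, adjusted p = 0.047) and lost its call in 14 of 17 alternatives, with 0.05 (adjusted p = 0.45) without PRMT5 knockdown library 3.

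LSM10 (ENSG00000181817) belongs to the U7 particle, which processes histone mRNA and not introns. It had 23.3, 25.02 and 25.5 CPM in the control, 24.3, 22.7 and 22.5 CPM after PRMT5 knockdown and 22.1, 20.3 and 20.01 CPM after MEP50 knockdown. The MEP50 knockdown libraries were below all controls and it fell by 0.25 on the log2 scale (SE 0.0739, adjusted p = 0.0047). Its U7 partner LSM11 had -0.08 and -0.14 (adjusted p = 0.38 and 0.10), and LSM4 had -0.01 and 0.08, none past the test. None of the 6 LSm genes differed between the knockdowns in edgeR (3 at an unadjusted p below 0.05, 0 in DESeq2), beside 39.7% of all tested genes. The edgeR adjusted p was 0.065 for LSM3, 0.069 for LSM4 and 0.088 for LSM10. LSM3 passed in 5 of 17 alternatives (adjusted p from 0.011 to 0.049) and LSM4 in 2, without GFP control library 1 (adjusted p = 0.049) or MEP50 knockdown library 1 (adjusted p = 0.0071).

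The U1 particle held the gene whose response differed most between the knockdowns. SNRPC (ENSG00000124562), whose protein stabilises pairing of U1 with the 5′ splice site, had 83.5, 81.7 and 76.9 CPM in the control. It had 62.9, 63.5 and 69.2 CPM after PRMT5 knockdown and 84.0, 89.8 and 90.2 CPM after MEP50 knockdown. The PRMT5 knockdown libraries were below all others, and the MEP50 knockdown libraries were above the control, the lowest of them by little. The log2 fold change was -0.31 with PRMT5 knockdown (SE 0.0458, adjusted p = 3.9e-07) and 0.13 with MEP50 knockdown (SE 0.0455, adjusted p = 0.019). The rise lost its call without GFP control library 3 (0.09, adjusted p = 0.14), without MEP50 knockdown library 2 (0.12, adjusted p = 0.060), without MEP50 knockdown library 3 (0.10, adjusted p = 0.12) and without a filter on low counts (0.11, adjusted p = 0.056). The fall kept its call in all 17 alternatives, between -0.36 and -0.29.

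SNRPA (ENSG00000077312), which binds a stem-loop of U1, had 106, 105 and 108 CPM in the control, 116, 115 and 118 CPM after PRMT5 knockdown and 120.0, 131 and 125 CPM after MEP50 knockdown. The 3 groups did not overlap, and it rose by 0.13 (adjusted p = 0.0031) and 0.24 (adjusted p = 9.0e-07). SNRNP70, the third U1 protein, had 0.05 and 0.00 with 95% intervals of -0.01 to 0.11 and -0.06 to 0.06.

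In the U2 particle and U2AF, 7 of 11 genes rose and 1 fell after PRMT5 knockdown, where 26.1% and 24.9% of all tested genes did so. After MEP50 knockdown 6 rose, where 26.5% of all tested genes rose and 25.2% fell. Falls among the 11 after MEP50 knockdown numbered 0 in edgeR with TMM scaling, adjusted or not, and 0 in DESeq2. SF3B4 passed there as lower with upper-quartile scaling (-0.08, adjusted p = 0.044) and with library totals alone (-0.08, adjusted p = 0.047). SF3A2 (ENSG00000104897), a subunit of the SF3a complex that helps U2 bind the branch site, had 71.5, 64.0 and 63.2 CPM in the control, 83.5, 75.9 and 87.5 CPM after PRMT5 knockdown and 72.0, 76.3 and 74.6 CPM after MEP50 knockdown. All knockdown libraries were above the control, the lowest MEP50 knockdown library by a small margin, with log2 fold changes of 0.31 (SE 0.0497, adjusted p = 1.4e-06) and 0.17 (SE 0.051, adjusted p = 0.0056). U2AF1 (ENSG00000160201), the U2AF subunit that reads the AG at the end of the intron, had 113, 110.1 and 103 CPM in the control, 130, 129 and 128 CPM after PRMT5 knockdown and 123, 125 and 131 CPM after MEP50 knockdown. It rose by 0.25 (adjusted p = 6.4e-07) and 0.22 (adjusted p = 6.3e-06), with no overlap with the control.

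Other rises in both knockdowns were SF3B1, the subunit that contacts the branch site (0.27 and 0.16), SF3B3 (0.14 and 0.17), SF3A3 (0.12 and 0.15) and SF3B2 (0.10 and 0.12). U2AF2, which binds the pyrimidine tract, rose after PRMT5 knockdown (0.18) and had 0.06 after MEP50 knockdown (adjusted p = 0.058). SNRPA1 (ENSG00000131876), which binds U2 together with SNRPB2, had 73.5, 75.02 and 77.4 CPM in the control, 71.2, 68.3 and 67.7 CPM after PRMT5 knockdown and 73.8, 70.9 and 68.8 CPM after MEP50 knockdown. Only the PRMT5 knockdown libraries lay wholly below the control, with a log2 fold change of -0.13 (SE 0.0436, adjusted p = 0.015) that was -0.11 (adjusted p = 0.057) without GFP control library 3. Its partner SNRPB2, with SF3A1 and SF3B4, passed in neither comparison, and their log2 fold changes lay between -0.07 and 0.05.

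The tri-snRNP had the largest rise. PRPF3 (ENSG00000117360), a protein of the paired U4 and U6 RNAs, had 73.0, 75.6 and 73.3 CPM in the control, 111, 111 and 122 CPM after PRMT5 knockdown and 88.5, 83.1 and 89.7 CPM after MEP50 knockdown. The 3 groups were widely separated, with the MEP50 knockdown between the others. The log2 fold change was 0.64 with PRMT5 knockdown (1.55-fold, SE 0.0427, adjusted p = 3.8e-16) and 0.24 with MEP50 knockdown (1.18-fold, SE 0.0441, adjusted p = 1.8e-05). PRPF4, its binding partner, rose by 0.41 and 0.23. PRPF8, the scaffold of the catalytic core, rose by 0.36 and 0.16, SNRNP200, the helicase that unwinds U4 from U6, by 0.31 and 0.11, and EFTUD2, a U5 GTPase, by 0.13 and 0.17. PRPF6 passed after PRMT5 knockdown (0.09) but lost its call in 8 of 17 alternatives.

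PRPF31 (ENSG00000105618), which binds U4 beside PRPF3 and PRPF4, moved the other way. It had 115, 104 and 112 CPM in the control, 99.97, 96.5 and 105 CPM after PRMT5 knockdown and 101, 101 and 100.4 CPM after MEP50 knockdown. The PRMT5 knockdown libraries overlapped the control and the MEP50 knockdown libraries lay just below it, and the log2 fold change was -0.13 in both (adjusted p = 0.0062 and 0.0080). Without GFP control library 1 neither passed (-0.11 and -0.09, adjusted p = 0.053 and 0.088), and the first did not pass without PRMT5 knockdown library 2 either (-0.11, adjusted p = 0.054). SNRNP40 (ENSG00000060688), a WD-repeat protein of U5, had 60.4, 61.7 and 64.1 CPM in the control, 63.9, 65.3 and 62.9 CPM after PRMT5 knockdown and 79.0, 70.7 and 73.3 CPM after MEP50 knockdown. The MEP50 knockdown libraries were above all others, with a log2 fold change of 0.26 (SE 0.047, adjusted p = 1.1e-05), while PRMT5 knockdown gave 0.04 (adjusted p = 0.45).

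In the Prp19 complex, PRPF19 (ENSG00000110107), the ubiquitin ligase that names it, had 187, 199 and 189 CPM in the control, 228, 222 and 226 CPM after PRMT5 knockdown and 230.3, 223 and 231 CPM after MEP50 knockdown. Both knockdowns were well above the control, with log2 fold changes of 0.23 (SE 0.0309, adjusted p = 3.0e-08) and 0.25 (SE 0.0312, adjusted p = 6.3e-09). CDC5L, its partner in the complex, passed in neither (0.04 and 0.03).

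**Figure D3:**
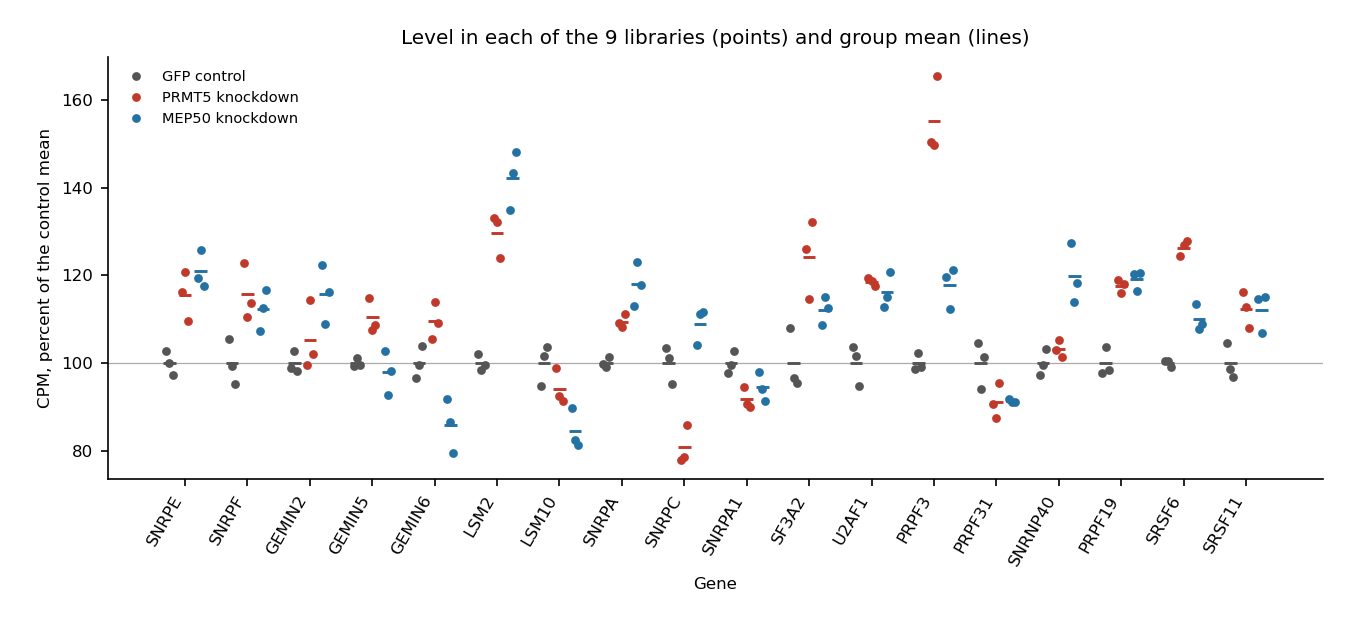
Level in each of the 9 libraries of the genes given with every library's value (horizontal axis), as CPM in percent of that gene's control mean (vertical axis); each point is a library and each short line a group mean. The group means of PRPF3 lie at 155% after PRMT5 knockdown and 118% after MEP50 knockdown, and the PRMT5 knockdown libraries of SNRPC fall below a control that its MEP50 knockdown libraries exceed.

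All 7 SR proteins rose after PRMT5 knockdown, and 5 after MEP50 knockdown, where 26.1% and 26.5% of all tested genes rose. SRSF6 (ENSG00000124193), an SR protein that acts on splice site choice, had 266, 266 and 262 CPM in the control, 329, 336 and 338 CPM after PRMT5 knockdown and 299.9, 285 and 288 CPM after MEP50 knockdown. The 3 groups did not overlap, with log2 fold changes of 0.34 (SE 0.0286, adjusted p = 4.1e-13) and 0.14 (SE 0.029, adjusted p = 1.0e-04). SRSF11 (ENSG00000116754) had 103, 97.4 and 95.6 CPM in the control, 115, 111 and 107 CPM after PRMT5 knockdown and 113, 105 and 114 CPM after MEP50 knockdown. It rose by 0.17 in both (adjusted p = 5.5e-04 and 6.7e-04), without overlap with the control. SRSF3 rose by 0.13 in both, SRSF7 by 0.21 and 0.08, and SRSF10 by 0.16 and 0.14. SRSF1 and SRSF2 rose by 0.16 and 0.20 after PRMT5 knockdown and had 0.04 and 0.06 after MEP50 knockdown (adjusted p = 0.29 and 0.10). SRSF7 lost its call after MEP50 knockdown in 12 of 17 alternatives, and SRSF10 in 5; without GFP control library 2 SRSF10 had 0.10 and 0.08 (adjusted p = 0.15 and 0.28).

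Tested directly against each other, the knockdowns differed for 16 of the 46 genes. With PRMT5 knockdown 13 stood higher than with MEP50 knockdown and 3 lower, where 19.2% and 20.5% of all tested genes did so (39.7% in either direction). The 13 were 4 tri-snRNP genes (PRPF3 at 0.40, PRPF8 and SNRNP200 at 0.20, PRPF4 at 0.18), 4 SR proteins (SRSF6 at 0.20, SRSF1, SRSF2 and SRSF7 at 0.13), U2AF2, SF3A2 and SF3B1 (0.12, 0.15 and 0.11), GEMIN6 and GEMIN5. The 3 lower were SNRPC (-0.43, 95% interval -0.53 to -0.34), SNRNP40 (-0.21, -0.31 to -0.12) and SNRPA (-0.11, -0.18 to -0.03). PRPF3 and GEMIN6 stood at least 1.2-fold higher and SNRPC as far lower, beside 10.6% and 11.4% of all tested genes. The PRMT5 knockdown libraries all lay above those of the MEP50 knockdown for 15 of the genes and below for 5, beside 23.1% and 24.2%. SF3A2 lost this call without PRMT5 knockdown library 1, PRMT5 knockdown library 3 or MEP50 knockdown library 1 (0.09 to 0.13). SNRPA lost it without PRMT5 knockdown library 2 (-0.10, adjusted p = 0.070) or MEP50 knockdown library 2 (-0.09, adjusted p = 0.096), with library totals alone and without a low-count filter.

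For the other genes a difference was not shown, and the intervals limit its size. The difference between the knockdowns was -0.02 for PRPF19 (95% interval -0.08 to 0.04), 0.00 for SRSF11 (-0.08 to 0.08), 0.00 for PRPF31 (-0.09 to 0.08), 0.03 for U2AF1 (-0.05 to 0.10) and -0.07 for SNRPE (-0.14 to 0.00). SNRPE passed as lower without PRMT5 knockdown library 2 (-0.10, adjusted p = 0.040). GEMIN2 and LSM2 had wider intervals of -0.26 to -0.01 and -0.30 to 0.03. The intervals are per gene and not adjusted for the number of genes. That of GEMIN2 therefore excludes 0 although its edgeR adjusted p was 0.091. GEMIN2 passed as lower without PRMT5 knockdown library 2 (-0.20, adjusted p = 0.026) or MEP50 knockdown library 2 (-0.19, adjusted p = 0.039).

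**Figure D4:**
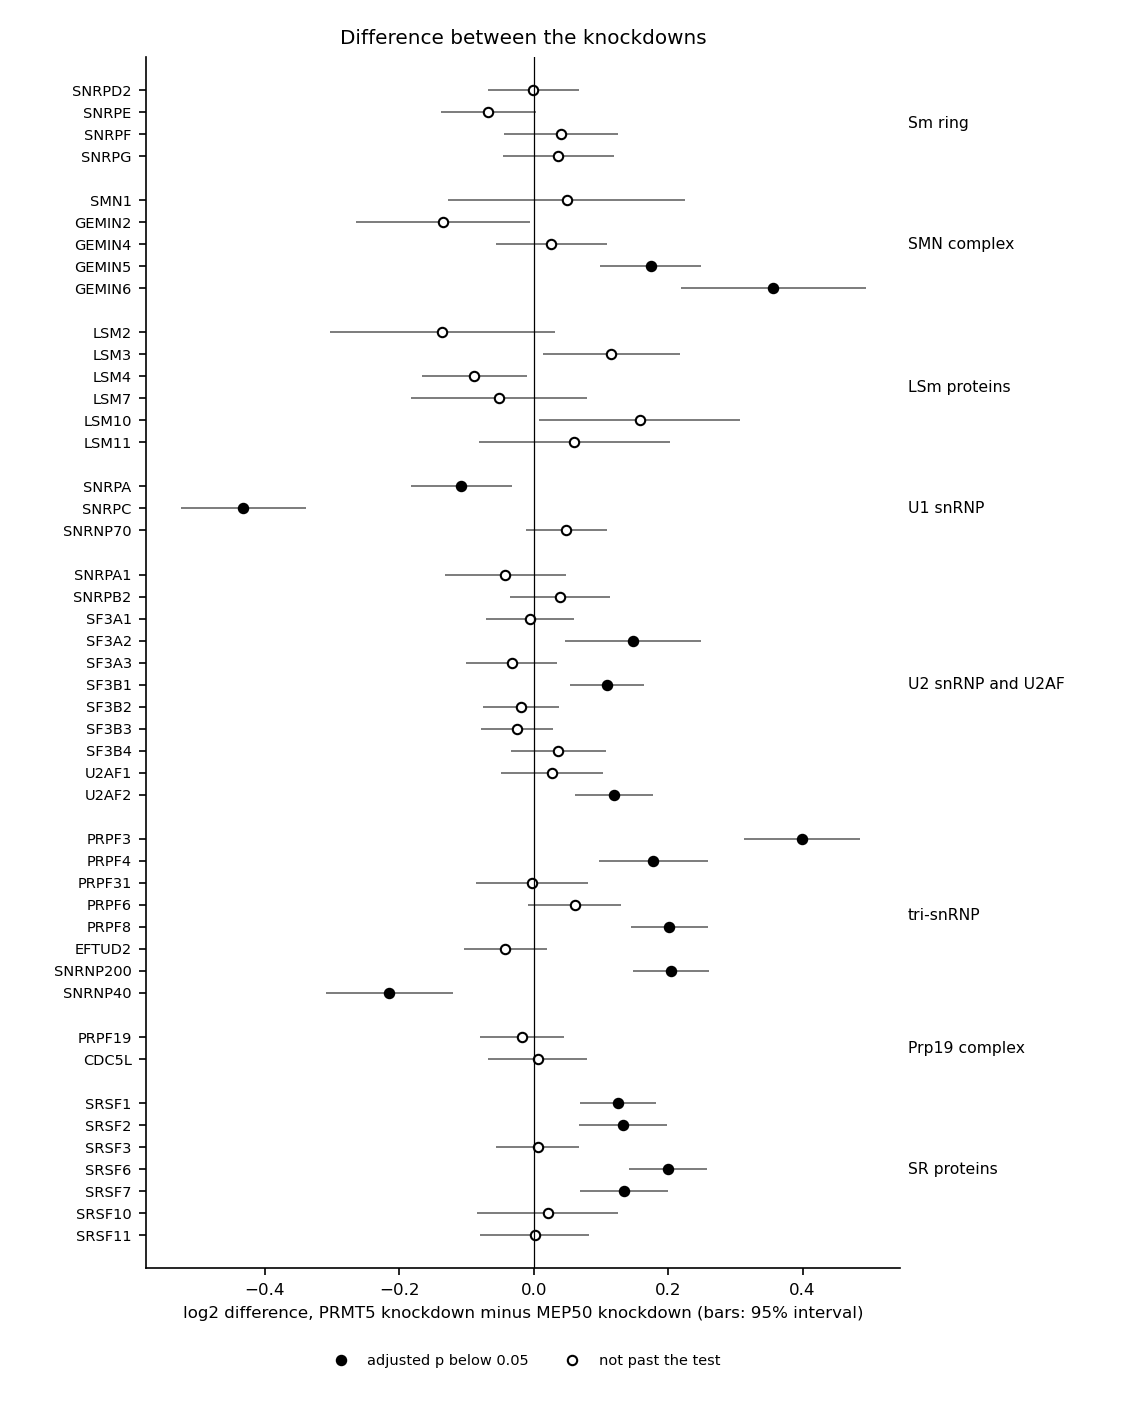
Log2 difference between the knockdowns, PRMT5 minus MEP50 (horizontal axis), for each of the 46 genes by role, with 95% intervals; filled points passed the test. SNRPC lies at -0.43 and PRPF3 at 0.40, and most of the remaining points lie within 0.2 of 0.

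Levels between genes were compared only per length, as RPKM computed from the TMM-scaled CPM and the exon length. In the control SRSF1 was the highest at 176 ± 4.29 RPKM, followed by SNRPE at 110 ± 2.96, with SRSF2 at 102 ± 0.615 and SNRPD2 at 99.96 ± 0.864 (SD, n = 3). The libraries of SRSF2 and SNRPD2 lay close together but did not overlap. SNRPC stood at 63.2 ± 2.67 in the control and 51.1 ± 2.74 after PRMT5 knockdown. The lowest were LSM11 at 4.03 ± 0.153, SMN1 at 5.19 ± 0.435, SRSF10 at 5.34 ± 0.470 and GEMIN6 at 6.62 ± 0.242, and SMN1 and SRSF10 did not differ beyond their spread. The place of SMN1 is uncertain, since reads cannot be assigned with certainty between it and SMN2 (4.33 ± 0.0517 RPKM in the control). Exon lengths came from a newer annotation than the counts, so the order is approximate.

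Of 16 genes that overlap an exon on the opposite strand, among them PRPF4, PRPF8, SF3A2, SNRPA and PRPF31, reads of the partner cannot be told apart, since the strand setting of the counting was not given. In all, 11 of the 46 have named pseudogenes, SNRPD2, SNRPF, LSM3 and SRSF1 being in both sets, and SRSF1 and SRSF2 share exon positions with another gene on the same strand. In the 23 genes with none of these, 12 rose and 1 fell after PRMT5 knockdown (26.1% and 24.9% of all tested genes) and 11 rose and 2 fell after MEP50 knockdown (26.5% and 25.2%).

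The authors' deposited table for PRMT5 knockdown listed 33 of the 46 genes, 30 higher and 3 lower, and their deposited table for MEP50 knockdown listed 27, with 24 higher and 3 lower. LSM3 (PRMT5 knockdown) and GEMIN4, SRSF7 and SRSF10 (MEP50 knockdown) were called here but not in the authors' deposited tables, and no gene had the opposite sign. Every gene listed there had an adjusted p below 0.05 in both DESeq2 and edgeR. The deposited results come from the same libraries and are not independent of those here. In the authors' deposited table PRPF3 had a DESeq2 log2 fold change of 0.63 after PRMT5 knockdown, and SNRPC had -0.31.

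Promoter windows from RefSeq (build GRCh38.p14, from 250 bases before to 50 after the annotated start) were matched for 42 of the 46 genes. Motifs were searched on both strands. CCGGAAG, a core of ETS factor sites, was found in 15 of 42 (35.7%), beside 22.2% of 10403 tested genes and 12.2% of 27305 genes with such a window. The 15 were SNRPD2, SNRPE, SNRPG, GEMIN4, SNRPC, SNRPA1, SNRPB2, SF3A1, SF3A2, SF3A3, SF3B2, SF3B4, U2AF2, PRPF6 and SNRNP200. CCAAT was found in 31.0% (43.2% of the tested genes), GGGCGG, the GC box, in 61.9% (77.1%), and TATAAA in 9.52% (8.53%). The 250 bases before the start are shown for SNRPC, which fell after PRMT5 knockdown, and for SF3A2 and U2AF2, which rose. Capitals mark each CCGGAAG match on either strand, and in SNRPC a match on each strand overlaps the other. The windows lie at chr6:34757255-34757504, chr19:2236574-2236823 and chr19:55654785-55655034, all on the plus strand, and are written 5′ to 3′.
SNRPC: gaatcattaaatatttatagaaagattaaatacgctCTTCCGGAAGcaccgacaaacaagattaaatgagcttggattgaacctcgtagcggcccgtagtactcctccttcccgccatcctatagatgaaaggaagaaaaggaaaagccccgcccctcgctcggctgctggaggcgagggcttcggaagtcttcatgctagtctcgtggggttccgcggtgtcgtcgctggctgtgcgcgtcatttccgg
SF3A2: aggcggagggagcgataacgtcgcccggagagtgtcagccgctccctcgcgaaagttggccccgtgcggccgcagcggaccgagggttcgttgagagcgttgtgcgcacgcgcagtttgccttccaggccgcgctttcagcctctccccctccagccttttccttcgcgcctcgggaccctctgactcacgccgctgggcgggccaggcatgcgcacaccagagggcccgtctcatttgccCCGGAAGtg
U2AF2: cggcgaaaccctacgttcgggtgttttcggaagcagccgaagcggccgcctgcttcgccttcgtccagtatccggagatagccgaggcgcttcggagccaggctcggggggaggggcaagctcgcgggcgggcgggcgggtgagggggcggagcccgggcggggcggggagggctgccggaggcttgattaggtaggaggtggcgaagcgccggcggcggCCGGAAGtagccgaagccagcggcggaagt
The match lay 9 to 3 bases before the start in SF3A2 and 30 to 24 before it in U2AF2. In SNRPC the matches lay 214 to 205 bases before it. Positions were read only in these genes and only before the start, so they show no link between position and direction of change. A match is a description of these letters and was not tested as a binding site.

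Other genes of the splicing machinery were taken from lists of the same and neighbouring complexes. Of 119 such genes, 114 were tested. After PRMT5 knockdown 53 rose (46.5%) and 12 fell (10.5%), with a median log2 fold change of 0.10. After MEP50 knockdown 51 rose (44.7%) and 19 fell (16.7%), with a median of 0.08. Of all tested genes, 26.1% rose and 24.9% fell after PRMT5 knockdown, and 26.5% rose and 25.2% fell after MEP50 knockdown. Of 25 hnRNP proteins, which package pre-mRNA, 15 rose (60%) and 3 fell (12%) with PRMT5 knockdown. With MEP50 knockdown 20 rose (80%) and 1 fell (4%). Of 14 other tested SR proteins and SR kinases, 9 rose (64.3%) and 1 fell (7.14%) with PRMT5 knockdown. With MEP50 knockdown 6 of these rose (42.9%) and 5 fell (35.7%), so they did not share the uniform direction of the 7 SR proteins above. Among 20 further Prp19 and catalytic step proteins, 3 rose (15%) and 4 fell (20%) with PRMT5 knockdown. With MEP50 knockdown 5 rose (25%) and 5 fell (25%). Of 8 tested proteins of the minor spliceosome, which removes a rare class of introns, 1 passed with PRMT5 knockdown, as lower (12.5%). With MEP50 knockdown 2 rose (25%) and 1 fell (12.5%).

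Of those named next, PRPF4B, HNRNPUL2, LSM6 and LSM14B moved farther than any of the 46 in each knockdown. HNRNPUL1 did so after MEP50 knockdown only. PRPF4B, a kinase of the tri-snRNP, rose by 0.95 and 0.84 on the log2 scale, from 104 ± 1.63 CPM in the control to 201 ± 5.13 and 186 ± 6.20 CPM (SD, n = 3). HNRNPUL2 rose by 0.86 and 1.00, HNRNPUL1 by 0.53 and 0.59, LSM6, of the U6 ring, by 0.79 and 0.63, LSM14B by 0.72 and 0.58, and PRPF38B by 0.58 and 0.46. PPIL1, a cyclophilin of the catalytic spliceosome, rose by 0.44 and 0.31, and DDX46, a helicase of U2, by 0.34 and 0.27. CLK3, a kinase of SR proteins, fell by 0.34 in both. ZCRB1, of the minor spliceosome, fell after PRMT5 knockdown (-0.28), as did BCAS2, of the Prp19 complex (-0.25). BCAS2 was about as low after MEP50 knockdown, at 40.1 ± 1.62 CPM beside 39.8 ± 1.67 with PRMT5 knockdown and 47.3 ± 1.08 in the control. ZCRB1 had 64.6 ± 0.529 CPM in the control, 53.4 ± 1.54 with PRMT5 knockdown and 59.6 ± 3.95 with MEP50 knockdown.

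Of 13 further genes of snRNP assembly, 6 differed between the knockdowns, where 39.7% of all tested genes did. CLNS1A, which brings Sm proteins to the methylosome, had 151 ± 5.74 CPM in the control, 154 ± 4.90 CPM after PRMT5 knockdown and 121 ± 3.24 CPM after MEP50 knockdown (SD, n = 3). It fell by 0.32 on the log2 scale in the last (adjusted p = 8.8e-10) and differed by 0.35 between the knockdowns (adjusted p = 2.4e-10). TGS1, which trimethylates the snRNA cap, fell by 0.39 after MEP50 knockdown (adjusted p = 2.6e-09) and differed by 0.38. SNUPN, which imports snRNPs into the nucleus, rose by 0.35 after PRMT5 knockdown, from 25.9 ± 1.22 to 33.0 ± 0.778 CPM. After MEP50 knockdown SNUPN was also above the control, at 30.8 ± 0.162 CPM. DDX23, a helicase of the tri-snRNP, stood 0.41 higher after PRMT5 than after MEP50 knockdown. HNRNPA1 stood 0.29 lower after PRMT5 than after MEP50 knockdown, at 1310 ± 12.7 beside 1603 ± 23.5 CPM. Of 17 proliferation genes, 9 rose and 3 fell after PRMT5 knockdown (26.1% and 24.9% of all tested genes) and 12 rose and 2 fell after MEP50 knockdown (26.5% and 25.2%). Their median log2 fold changes were 0.09 and 0.15, and their part in the splicing gene results was not tested.

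**Figure D5:**
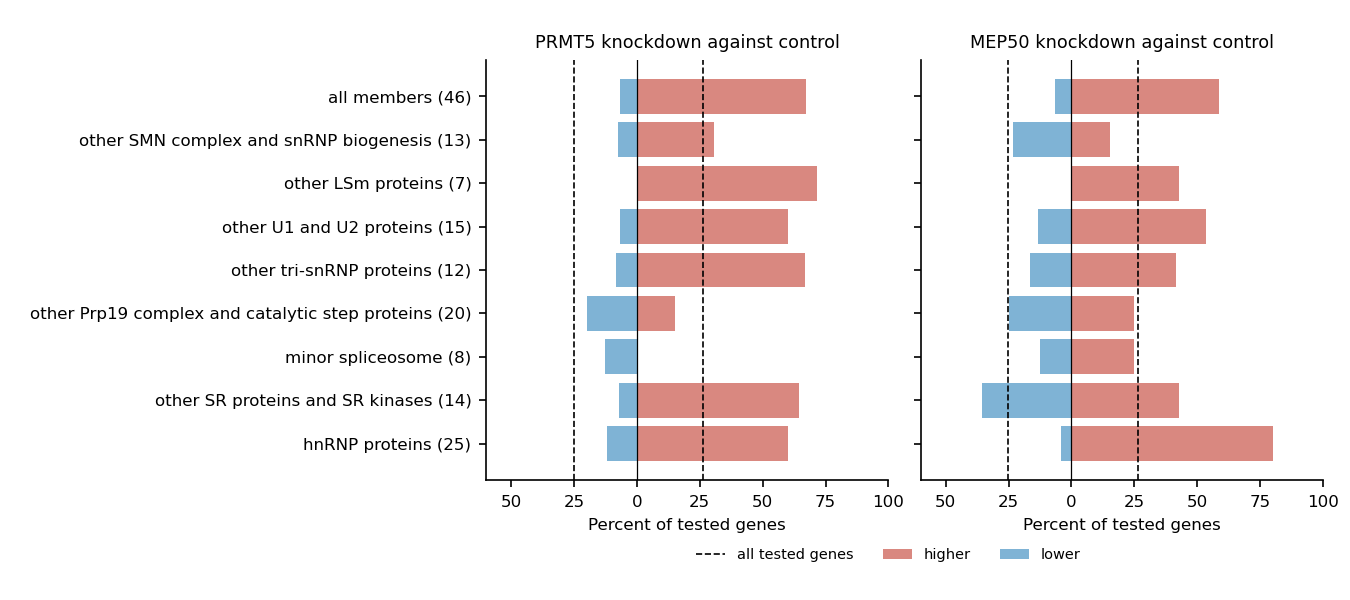
Percentage of tested genes of each list that rose (right) and fell (left) after PRMT5 and after MEP50 knockdown, for the 46 genes and 8 further lists with the number tested in brackets; dashed lines give the percentages over all tested genes. The 46 genes reach 67.4% and 58.7% higher, and the hnRNP list reaches 60% and 80%.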

How the data were processed

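The libraries were made from total RNA of A549 cells after rRNA depletion with a stranded kit, per the labels' protocols, and were grouped by their labels. The authors deposited whole-number counts per Ensembl gene, made with Trim Galore, STAR and HTSeq on hg19, per the submitters' processing notes; versions, annotation release and strand setting are not given in the sources used here. The 5 HTSeq summary lines were kept out of library sizes and tests. The authors' deposited comparison tables, per the file headers, give log2 fold changes and p-values of DESeq2 and edgeR for listed genes, with test scores not used here.

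All libraries entered a single edgeR 4.0.16 fit (R 4.3.3) whose model held the group alone. It used filterByExpr, TMM factors (between 0.99 and 1.01), robust quasi-likelihood tests and a Benjamini-Hochberg threshold of 0.05 over 14582 genes. SEs were derived as the size of the log2 fold change divided by the root of F, and intervals are 95%. The biological coefficient of variation was 0.0395. Depth sets the precision: the control libraries held 25075508, 29461432 and 27709185 reads on genes, the PRMT5 knockdown 25192565, 30735359 and 31586128, and the MEP50 knockdown 20806181, 21622198 and 28663624. Replicates differed by 3.38 to 4.70 times the counting variance, so none looked like a repeat deposit. The labels call them biological replicates without naming separate cultures, and p-values measure the spread between these libraries.

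Symbols were taken from a table holding 86.5% of the identifiers. Lengths came from GENCODE release 29 (GRCh38), so no gene coordinates are given for the counts. RNU11, RNU12, RNU4ATAC and SRSF8 were not matched, and RNU6ATAC was not tested. The members and lists were chosen with earlier results of these data known, and the 1.2-fold threshold after the values were seen. Genes given with every library's value were, per role, the called genes with the largest rise and fall in each comparison. From each wider list, up to 2 called genes per comparison with at least 1 CPM could be named. The alternatives changed the scaling (RLE, upper quartile, library totals), the tool (DESeq2 1.42.0), the filter (none, or 1 CPM in 3 libraries), the replicate block and the libraries in the fit. The test was also run on simulated counts whose changed genes moved by at least 1.2-fold. It was therefore not checked for changes as small as most of those reported here.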

Additional observations from a re-analysis of the deposited data

Results flagged for a closer look

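SNRPC was the gene whose direction differed between the knockdowns: its log2 difference, PRMT5 minus MEP50 knockdown, was -0.43 (95% interval -0.53 to -0.34, edgeR adjusted p = 4.0e-10), from -0.31 and 0.13 against the shared control. The difference lay between -0.49 and -0.41 in 17 alternative analyses, while the rise after MEP50 knockdown lost its call in 4 of them.

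No comparison of genes uses the reads that fell on no counted gene feature, and their place in introns or between genes is not known. Their share was 14.2 ± 0.453% with PRMT5 knockdown and 12.1 ± 0.296% in the control (SD, n = 3). The groups did not overlap (exact permutation test, two-sided, p = 0.1, the smallest that 3 against 3 allows). With MEP50 knockdown it was 13.2 ± 0.752% and overlapped the control (exact permutation p = 0.2).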

How the results depend on the processing

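The number of the 46 genes past the test was 34, 30 and 16 (PRMT5 against control, MEP50 against control, PRMT5 against MEP50 knockdown). It ranged from 31 to 34, 25 to 30 and 16 to 17 over 8 changes of scaling, tool, filter, block or libraries in the fit, and from 29 to 33, 26 to 31 and 15 to 18 when each library was left out in turn. None of these totals moved by 1.5 times and no called gene changed direction. The genes called lower numbered 3 in each comparison and from 2 to 4 over these alternatives. Of the called genes, 27, 23 and 14 kept their call in all 17 alternatives. Of the genes not called, 0, 5 and 5 passed in at least 1 alternative. For the genes of the other lists named with a log2 change, no printed call was lost in these alternatives, which were added for them after seeing the data. With the replicate number as a block (replicate block) the counts were 34, 30 and 16. Same-numbered libraries deviated together weakly at most (r from -0.036 to 0.052 over 9 pairs, 0 of them over 0.1), although 6 of 9 libraries correlated best with their own number. Between GFP control and MEP50 knockdown, r was 0.052, 0.044 and 0.050 for the same number and at most 0.0015 for different numbers. The numbers were left out of the main model, and a weak pairing is not excluded. Without a low-count filter 31, 25 and 16 were called. The calls that were lost lay mostly at log2 changes of about 0.1, near the limit of what 3 libraries a group resolve here.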
